A study of Homo sapiens with 6 samples.

Results

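HEXIM1, its paralogue HEXIM2 and the genes they work with in transcription elongation were followed in Rh30 cells, an established human line from a PAX3-FOXO1 fusion-positive rhabdomyosarcoma, treated with YK-4-279 or vehicle. The 9 genes were HEXIM1 and HEXIM2 (inhibitors of P-TEFb), LARP7 and MEPCE (proteins of the 7SK particle), CDK9, CCNT1 and CCNT2 (the kinase and cyclins of P-TEFb), and BRD2 and BRD3 (BET bromodomain proteins). They were picked by symbol, for their shared function, from 35268 named genes, and the group was chosen because HEXIM1 had been seen to rise with YK-4-279. Values of the 9 genes from this comparison are therefore a description, and no p-value is given for any of them. mRNA was sequenced from 3 samples treated for 24 hours with 1 µM YK-4-279, a small molecule that blocks protein interactions of ETS transcription factors, and from 3 samples given DMSO alone for 24 hours. All 6 libraries came from 1 cell line, at 1 dose and 1 time. No source used here says whether the 3 samples of a group were separate cultures, so p-values measure the spread between these samples, which may be technical.

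P-TEFb, a complex of CDK9 with a cyclin T, phosphorylates paused RNA polymerase II and the factors that hold it, and so lets transcription enter elongation. Most cells keep much of their P-TEFb inactive in a particle built on 7SK RNA, in which MEPCE caps the RNA, LARP7 protects its end, and a HEXIM protein blocks the kinase. BET proteins bind acetylated histones through their bromodomains. HEXIM1 is widely used as a marker gene that rises when BET proteins are inhibited and when P-TEFb is released from 7SK.

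HEXIM1 is a gene of 1 exon at chr17:45148475-45152099 on the plus strand (hg38, ENSG00000186834.4), and HEXIM2 lies next to it at chr17:45160700-45170040, 8601 bases further on. The 250 bases before the RefSeq start site are shown for these neighbours because these neighbouring paralogues differ so much in level, and for CDK9 and CCNT1 because no other gene of the 9 held the ETS letters there. Capitals mark the letters that were searched on both strands. For the ETS family they were CCGGAAGT. A GC box was searched as GGGCGG. For the binding site of NF-Y, a CCAAT box, the motif letters are its name. The TATA box of core promoters was searched as TATAAA, and no motif shared a base with another in these windows. Each sequence runs 5′ to 3′ in the direction of the gene (RefSeq, GRCh38.p14).
HEXIM1 (chr17:45148225-45148474, plus strand): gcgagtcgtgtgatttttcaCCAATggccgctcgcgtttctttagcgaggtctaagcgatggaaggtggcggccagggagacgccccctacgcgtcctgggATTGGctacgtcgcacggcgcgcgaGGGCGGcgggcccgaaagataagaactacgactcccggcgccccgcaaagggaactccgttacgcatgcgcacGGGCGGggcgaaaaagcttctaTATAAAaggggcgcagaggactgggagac
HEXIM2, second start site (chr17:45161625-45161874, plus strand): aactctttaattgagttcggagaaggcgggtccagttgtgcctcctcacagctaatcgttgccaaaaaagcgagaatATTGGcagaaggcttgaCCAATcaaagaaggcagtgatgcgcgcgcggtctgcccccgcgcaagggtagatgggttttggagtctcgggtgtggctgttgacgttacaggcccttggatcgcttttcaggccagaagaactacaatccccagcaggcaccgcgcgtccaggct
CDK9 (chr9:127785784-127786033, plus strand): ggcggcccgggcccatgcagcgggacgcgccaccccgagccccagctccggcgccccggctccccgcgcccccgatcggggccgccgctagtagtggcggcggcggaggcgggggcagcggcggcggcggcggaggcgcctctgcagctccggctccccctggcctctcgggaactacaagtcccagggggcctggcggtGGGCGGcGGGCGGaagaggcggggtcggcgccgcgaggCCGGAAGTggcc
CCNT1, first start site (chr12:48716708-48716957, minus strand): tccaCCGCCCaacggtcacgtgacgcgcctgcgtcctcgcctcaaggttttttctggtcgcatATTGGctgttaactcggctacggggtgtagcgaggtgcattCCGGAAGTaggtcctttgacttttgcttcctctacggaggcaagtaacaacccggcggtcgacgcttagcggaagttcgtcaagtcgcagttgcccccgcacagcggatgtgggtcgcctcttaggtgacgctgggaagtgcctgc

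The HEXIM1 window held 2 GC boxes, 2 CCAAT boxes and 1 TATA box, and it was the only one of the 17 start sites of the 9 genes with TATAAA. The HEXIM2 window shown held 2 CCAAT boxes and no GC box, and its other start site held none of the 4 motifs. CDK9 and CCNT1 held 1 ETS match each. Over 35116 RefSeq promoters of the same length, 3.42% held the ETS letters, 42.6% a GC box, 32% a CCAAT box and 10.7% a TATA box. Counted in the same way, per start site, a GC box stood in 12 and a CCAAT box in 6 of the 17 windows. These matches are letters only, and no binding was measured here.

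The libraries held 16724650 to 24677433 reads on named genes, and each deposited value is a read count scaled to its library. The 5 myogenic markers checked (MYOD1, MYOG, DES, CHRNA1 and FGFR4) had reads in every library, with summed normalized counts of 77728 to 89378 under DMSO and 82541 to 86939 under YK-4-279. The 4 leukocyte markers summed to at most 1 in each library, with CD68 listed at 0, and the 3 endothelial markers summed to 33.4 to 46.0 under DMSO and to 38.0 to 48.0 under YK-4-279. Of the 3 epithelial markers KRT5 was listed at 0, and their sum, nearly all EPCAM, ran from 50.1 to 64.3 under DMSO and from 59.8 to 90.0 under YK-4-279. DMSO replicate 1 stood apart: it had the fewest reads, the largest share on mitochondrial genes (6.05%, against 4.74% to 5.03% in the others) and the lowest mean correlation with the other libraries (0.989). Its part in the results was not tested, and values without it are given for each of the 9 genes.

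All 9 genes had reads in every library and passed the minimum mean of 10 normalized counts, as 13930 genes did. As a description, HEXIM1 was the 1 gene of the 9 past the threshold of the limma fit across all genes (adjusted p of 0.05), where 3.41% of the genes were called in either direction and 1.26% were called higher. Of the 475 genes called, 176 were higher and 299 lower with YK-4-279. That split moved to 132 higher and 145 lower with quantile normalization, and to 498 higher and 1469 lower after correction of each library for its trends on GC content and transcript length (GC and length correction). Nothing is read from the count among the 9, because the comparison was used to choose them. In 3 of the 9 genes (HEXIM1, CDK9 and BRD2) every YK-4-279 library lay above every DMSO library, where 10.9% of all genes did so. No gene of the 9 lay wholly lower, where 15.1% of all genes did, and in the other 6 the groups overlapped. Without DMSO replicate 1 the fit called 13.1% of all genes and 3 of the 9, HEXIM1, BRD2 and BRD3. With all libraries but eBayes without trend, it called 33 of 13930 genes and 0 of the 9. The median log2 fold change was 0.05 over the 9 genes and -0.0075 over all genes tested.

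HEXIM1, which clamps P-TEFb in the 7SK particle, had 586, 756 and 728 normalized counts in DMSO replicates 1, 2 and 3, and 1088, 1164 and 1143 in YK-4-279 replicates 1, 2 and 3. The lowest treated library was well above the highest vehicle library, and DMSO replicate 1 was the lowest of all. The mean went from 690.3 ± 91.1 (SD, n = 3) to 1132 ± 39.0 (SD, n = 3), a 1.64-fold rise. On the scale of log2(normalized count + 1) the difference was 0.72 with a standard error of 0.092, and without DMSO replicate 1 it was 0.61 with a standard error of 0.058. Between 465 and 1270 reads stood behind each value. The coefficient of variation (SD over mean) was 13.2% under DMSO and 3.44% under YK-4-279, where counting error alone gives 3.79% and 2.93%. HEXIM1 ranked at 274 of 13930 genes by its log2 fold change, and 97.7% of genes had a smaller change in either direction. Many of the genes above it had few reads, and among the 10699 genes averaging at least 100 normalized counts, 18 had a larger log2 fold change. In these bulk libraries a change in the share of cells that express a gene and a change in RNA per cell cannot be told apart.

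HEXIM2, the paralogue that can take the place of HEXIM1 in the particle, had 34.0, 43.0 and 26.7 normalized counts under DMSO and 32.6, 39.1 and 33.0 under YK-4-279. All 3 treated values lay inside the range of the vehicle libraries. The log2 difference was 0.03 with a standard error of 0.24 (0.04 without DMSO replicate 1). It turned sign without DMSO replicate 3 (-0.13), without YK-4-279 replicate 2 (-0.05) and after quantile normalization (-0.13), and the 95% interval from -0.48 to 0.54 leaves room for a change of some size in either direction. Only 27 to 43 reads stood behind each value, so that counting error alone gives a coefficient of variation of 17.2% under DMSO, beside the 23.5% observed. The log2 ratio of HEXIM1 over HEXIM2 was 0.69 higher with YK-4-279, or 0.57 without DMSO replicate 1.

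**Figure D1:**
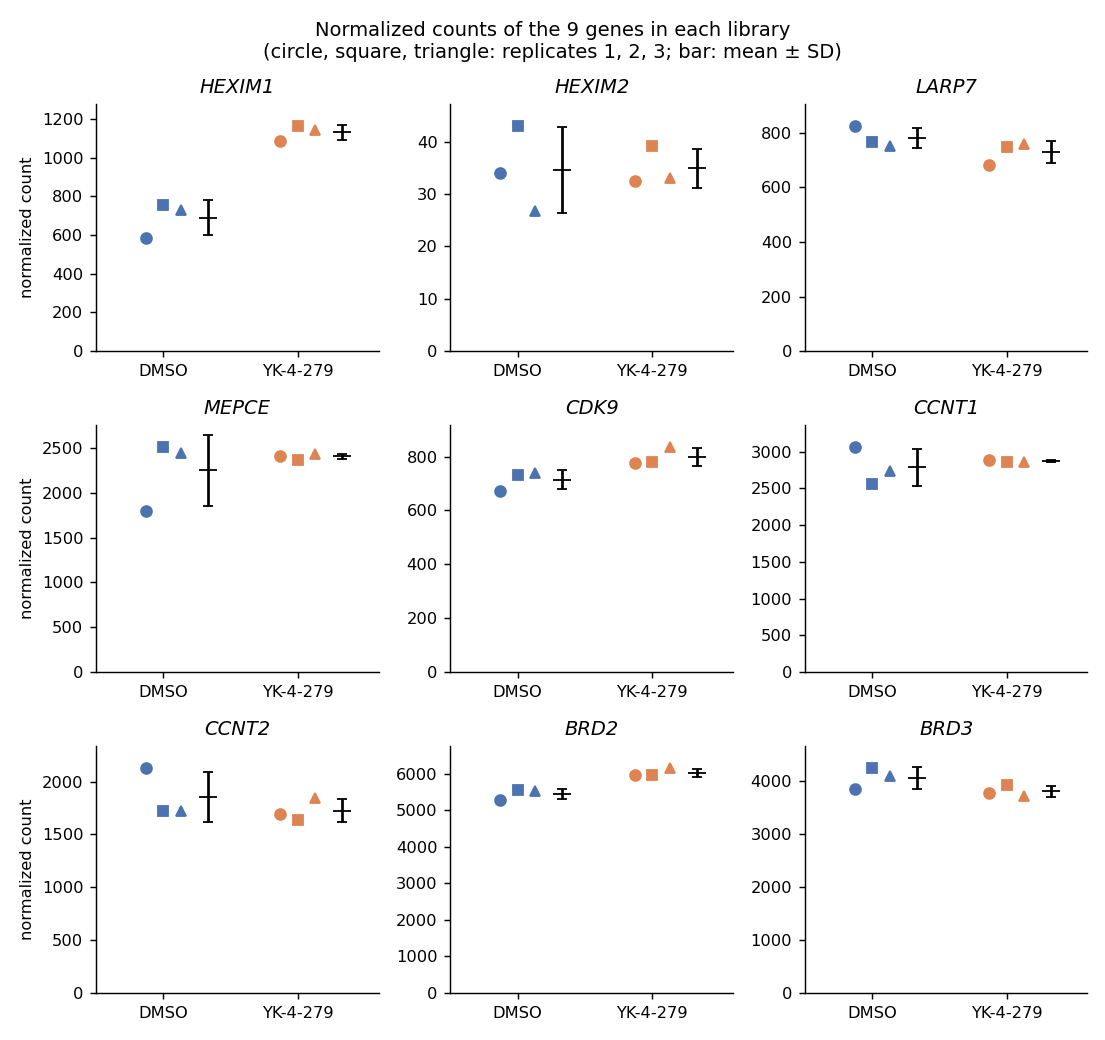
Normalized counts (y axis, from 0) of the 9 genes in the 3 DMSO and 3 YK-4-279 libraries, with circles, squares and triangles for replicates 1, 2 and 3 and a bar for the mean ± SD. HEXIM1 sits at 586 to 756 under DMSO and 1088 to 1164 under YK-4-279, CDK9 and BRD2 are also separated, and the groups overlap in the other 6.

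LARP7 at chr4:112637077-112657696, whose protein binds the 3′ end of 7SK RNA, had 825, 767 and 753 normalized counts under DMSO and 682, 748 and 757 under YK-4-279. YK-4-279 replicate 1 was the lowest, and the groups overlapped. The mean was 782 ± 37.8 under DMSO and 729 ± 41.0 under YK-4-279 (SD, n = 3 each), a log2 difference of -0.10 with a standard error of 0.076, or -0.06 without DMSO replicate 1. MEPCE at chr7:100428322-100434126, the enzyme that caps 7SK RNA, had 1794, 2513 and 2450 normalized counts under DMSO and 2417, 2372 and 2434 under YK-4-279. DMSO replicate 1 alone lay low, and the treated libraries fell just under the other two DMSO libraries. The log2 difference of MEPCE was 0.11 with a standard error of 0.10, and it turned to -0.04 without DMSO replicate 1. The scaffold RNA itself, RN7SK, was listed at 0 in all 6 libraries. A listing at 0 is not read as absence, since SUPT4H1, which every cell uses, was listed at 0 as well.

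CDK9 at chr9:127785679-127790792, the kinase of P-TEFb, had 673, 730.5 and 741 normalized counts under DMSO and 778, 781 and 835 under YK-4-279. The groups did not overlap, though the gap between the highest vehicle and the lowest treated library was small. The mean went from 715 ± 36.3 to 798 ± 32.2 (SD, n = 3 each), 1.12-fold, with a log2 difference of 0.16 and a standard error of 0.074. That difference was 0.12 without DMSO replicate 1 and 0.093 after GC and length correction. CCNT1 at chr12:48688458-48716998 (minus strand), which codes for the main cyclin partner, had 3061, 2563 and 2730 normalized counts under DMSO and 2887, 2859 and 2859 under YK-4-279. The treated libraries were nearly alike and lay inside the vehicle range, with a log2 difference of 0.05 and a standard error of 0.068. It was 0.12 without DMSO replicate 1, -0.011 without DMSO replicate 2 and 0.10 after GC and length correction or quantile normalization. CCNT2 at chr2:134918235-134959342, the alternative cyclin, had 2128, 1722 and 1719 normalized counts under DMSO and 1691, 1635 and 1848 under YK-4-279. DMSO replicate 1 was again the odd one, and the log2 difference of -0.10 (standard error 0.085) became 0.0016 without it.

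BRD2 at chr6:32968594-32981505, a BET protein of active chromatin, had 5283, 5539 and 5516 normalized counts under DMSO and 5959.6, 5952 and 6152 under YK-4-279. Each treated library was above each vehicle library. The mean went from 5446 ± 141 to 6021 ± 114 (SD, n = 3 each), 1.11-fold, with a log2 difference of 0.14 and a standard error of 0.053. It was 0.12 without DMSO replicate 1, 0.20 after quantile normalization and 0.086 after GC and length correction. BRD3 at chr9:134030305-134068535 (minus strand), its close relative, had 3847, 4249 and 4093 normalized counts under DMSO and 3781, 3929 and 3726 under YK-4-279. DMSO replicate 1 lay among the treated libraries. The log2 difference was -0.09 with a standard error of 0.059, reached -0.13 without DMSO replicate 1 and was -0.011 after quantile normalization.

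**Figure D2:**
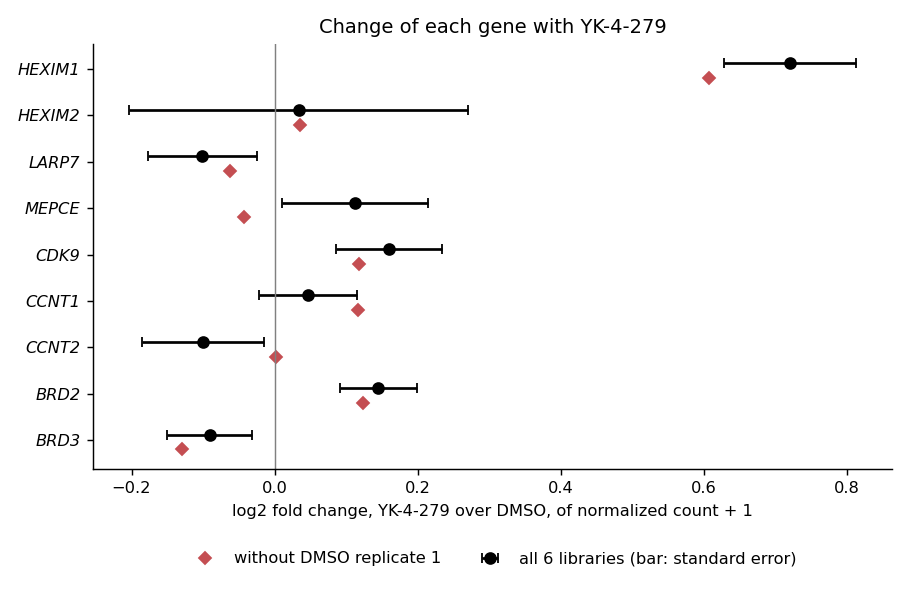
Log2 fold change of YK-4-279 over DMSO (x axis, on normalized count + 1) for the 9 genes, with black points and standard error bars for all 6 libraries and red diamonds without DMSO replicate 1. HEXIM1 stands at 0.72 and 0.61, while the other 8 genes lie between -0.10 and 0.16 with all libraries.

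Within the vehicle group, DMSO replicate 1 held the lowest value for HEXIM1, MEPCE, CDK9, BRD2 and BRD3, whose transcripts have a GC content of 48.3% to 61.4%. It held the highest value for LARP7, CCNT1 and CCNT2, whose transcripts have a GC content of 37.0% to 40.3%. HEXIM2, at 61.3%, had its middle value there. After GC and length correction, the log2 difference of HEXIM1 was 0.71, and those of LARP7, MEPCE and CCNT2 lay nearer to 0, at -0.035, 0.024 and -0.024. So did those of CDK9 and BRD2, at 0.093 and 0.086. Those of CCNT1 and BRD3 lay further from 0, at 0.10 and -0.13, and that of HEXIM2 turned to -0.07.

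Levels can be set side by side only per length, so normalized counts were divided by the length of the canonical transcript in kb. Under DMSO BRD2 was the most abundant at 1099 ± 28.5 per kb, ahead of MEPCE at 798 ± 141 and BRD3 at 718 ± 35.8 (SD, n = 3 each). CCNT1 (410.3 ± 37.4) and LARP7 (371 ± 18.0) came next, then CDK9 (288 ± 14.6) and CCNT2 (268 ± 34.0), all per kb. HEXIM1 was eighth with 190.4 ± 25.1 per kb, and HEXIM2 last with 24.1 ± 5.67. The ranges of the DMSO libraries overlapped between MEPCE and BRD3, between CCNT1 and LARP7, and between CDK9 and CCNT2. Within single libraries CCNT1 lay above LARP7 in 6 of 6, and MEPCE above BRD3 and CDK9 above CCNT2 in 5 of 6. Under YK-4-279 HEXIM1 reached 312 ± 10.8 per kb and stood seventh, above CCNT2 at 249 ± 15.9, and the rest of the order was the same.

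**Figure D3:**
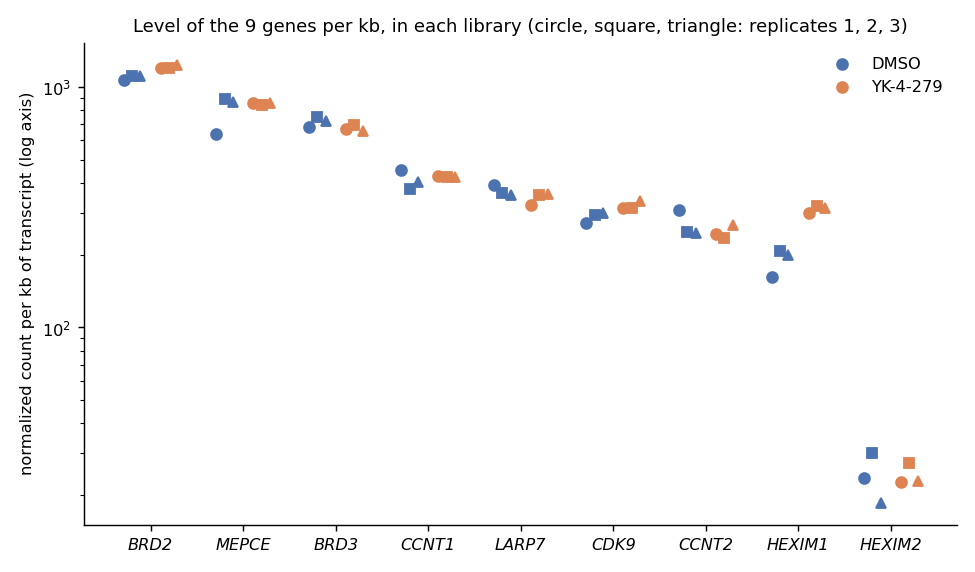
Normalized counts per kb of canonical transcript (y axis, log scale) of the 9 genes in order of their DMSO mean, with blue for DMSO, orange for YK-4-279 and a symbol for each replicate. HEXIM1 moves from 162 to 209 under DMSO to 300.2 to 321 under YK-4-279, level with CDK9, and HEXIM2 stays between 18.6 and 29.9.

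Ratios taken within a library do not depend on its scaling. For each CDK9 transcript, per kb, there were 0.596, 0.709 and 0.673 of HEXIM1 in the DMSO libraries and 0.958, 1.02 and 0.937 in the YK-4-279 libraries. The mRNA of HEXIM1 was below that of CDK9 in each vehicle library and closer to it in each treated one, with means of 0.660 ± 0.058 and 0.972 ± 0.043 (SD, n = 3 each). HEXIM1 over LARP7 went from 0.516 ± 0.089 to 0.903 ± 0.025, and HEXIM1 over MEPCE from 0.240 ± 0.013 to 0.366 ± 0.016 (SD, n = 3 each), with no overlap in either. These 3 ratios hold the rise of HEXIM1 by which the genes were chosen. HEXIM1 over MEPCE was 0.254, 0.234 and 0.231 in the DMSO libraries, and both genes were low in replicate 1. The subunits of P-TEFb overlapped between the groups, CDK9 over CCNT1 being 0.707 ± 0.094 and 0.761 ± 0.033, and CCNT1 over CCNT2 1.53 ± 0.078 and 1.70 ± 0.11 (SD, n = 3 each). The log2 ratio of CDK9 over CCNT1 was 0.11 higher with YK-4-279, and 0.00056 higher without DMSO replicate 1. BRD2 over BRD3 was 1.57, 1.49 and 1.54 under DMSO and 1.80, 1.73 and 1.89 under YK-4-279, without overlap, and its log2 difference was 0.24 with all libraries and 0.25 without DMSO replicate 1.

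**Figure D4:**
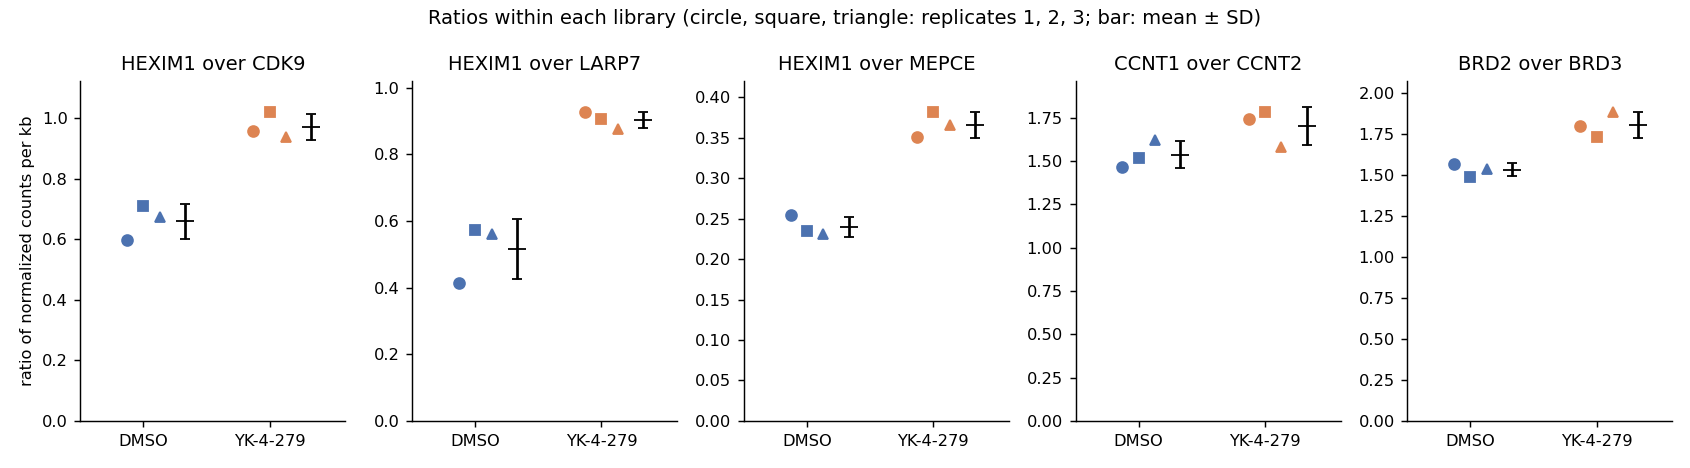
Ratios of normalized counts per kb (y axes, from 0) within each library, with symbols for replicates 1, 2 and 3 and a bar for the mean ± SD of each group. HEXIM1 rises against CDK9, LARP7 and MEPCE, CCNT1 over CCNT2 overlaps, and BRD2 over BRD3 is 1.49 to 1.57 under DMSO and 1.73 to 1.89 under YK-4-279.

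Other genes share bases with these. HEXIM2-AS1, on the opposite strand, covers 1700 bases of HEXIM1 and 839 of HEXIM2, and no value of it is used here. BRD3OS, opposite to BRD3 over 4362 bases, had 716, 748 and 779.8 normalized counts under DMSO and 825, 825 and 809 under YK-4-279, a log2 difference of 0.13 (limma adjusted p = 0.335). ZCWPW1, opposite to MEPCE over 671 bases, had at most 45 reads in a library. A second annotated protein-coding gene, ENSG00000289690, shares 5786 bases with MEPCE on the same strand, and no value of it is used here. Reads of such a pair cannot be told apart by strand. The library kit kept strand, but no source used here gives the strand setting of the counting, so values of overlapping genes are uncertain to that extent.

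The rest of the elongation pathway was read from lists of genes grouped by function. In the limma fit no gene was called among 11 tested of 13 pausing and elongation factors (DSIF, NELF, the PAF1 complex and SUPT6H), 8 of 9 in the super elongation complex, 9 of 9 other transcription kinases and cyclins, and 11 of 12 7SK-binding proteins and release factors, where 3.41% of all genes were called. An unadjusted p under 0.05 was reached by 2, 3, 2 and 2 of them, where 18.7% of all genes reached it. On recovered reads edgeR called none in these 4 lists, and DESeq2 called 1 pausing factor and 1 7SK-binding protein, where edgeR called 3.34% of all genes and DESeq2 4.85% of the 12849 genes to which it gave an adjusted p. The median log2 fold changes of the 4 lists were 0.01, 0.02, -0.0060 and -0.04, beside -0.0075 over all genes. The genes with the highest means were SUPT6H, a histone chaperone of elongating polymerase (log2 difference 0.08, limma adjusted p = 0.472), AFF4, the scaffold that carries active P-TEFb (0.15, adjusted p = 0.267), CDK12, a kinase of elongating polymerase (-0.0070, adjusted p = 0.965), and HNRNPA1, which binds 7SK RNA once P-TEFb has left (-0.04, adjusted p = 0.790).

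Without DMSO replicate 1 the 4 lists had 2, 2, 1 and 4 calls. Higher then were SUPT5H and CTR9, AFF4 and ELL, and CDK7, and lower were SRSF2, PPM1G, PPP1CA and TRIM28, all named here after their values were seen. In that fit 13.1% of all genes were called. Without DMSO replicate 2, where 4.85% of all genes were called, there was 1 call in each list but the kinases.

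Of 31 tested among 32 other bromodomain genes, 2 were lower and none higher, where 2.15% of all genes were called lower and 1.26% higher, and the median log2 fold change was -0.05. ATAD2, a bromodomain ATPase linked to DNA replication and cell growth, had 4198, 3543 and 3592 normalized counts under DMSO and 2768, 2776 and 2857 under YK-4-279. The mean fell from 3778 ± 364 to 2801 ± 49.5, with SD over 3 libraries each and a log2 difference of -0.43 with a standard error of 0.069 (limma adjusted p = 0.00725). TRIM24, a reader of histone H3 and partner of nuclear receptors, fell from 1714 ± 194 to 1381 ± 21.1, a log2 difference of -0.31 with a standard error of 0.078 (adjusted p = 0.0488). In both genes the groups did not overlap. TRIM28, the corepressor with the highest mean, had a log2 difference of -0.11 (adjusted p = 0.282). ATAD2 lost its call when any 1 YK-4-279 replicate was left out (limma adjusted p = 0.0543 to 0.0874), and TRIM24 also without DMSO replicate 3 (0.0789 to 0.213 over these 4 fits). TRIM24 lost it too with TMM scaling (limma adjusted p = 0.0617), quantile normalization (0.103), the replicate block (0.0818) and eBayes without trend (0.199), and by edgeR (0.0536). eBayes without trend also ended the call of ATAD2 (0.109). Without DMSO replicate 1 the list had 6 calls, 2 higher and 4 lower, where 13.1% of all genes were called.

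Genes known as markers of BET inhibition were set beside HEXIM1. Of 5 tested among 6 markers known to rise, 3 were higher, where 1.26% of all genes were, and all 3 code for histone H2B. The list was chosen with earlier results of these data known, the rise of H2BC5 among them. Its count is therefore a description and not independent evidence of a direction. H2BC5 had 54.2, 73.9 and 65.1 normalized counts under DMSO and 184, 217 and 154 under YK-4-279, without overlap. Its mean of 64.4 ± 9.88 against 185 ± 31.6 gave a log2 difference of 1.51 with a standard error of 0.16 (limma adjusted p = 6.33e-04). H2BC12 went from 119.9 ± 5.47 to 216 ± 15.6, a log2 difference of 0.85 (adjusted p = 0.00329), and H2BC21 from 53.6 ± 13.4 to 97.5 ± 4.31, a log2 difference of 0.88 (adjusted p = 0.0232). H2BC4 was at 25.0 ± 7.04 and 28.0 ± 2.68 normalized counts (log2 difference 0.19, adjusted p = 0.746). ZCCHC24, a zinc finger gene, was at 3868 ± 315 and 3737 ± 60.9 (log2 difference -0.05, adjusted p = 0.745). SERPINI1, the sixth, had 2 to 13 reads per library and was not tested. Histone genes are near copies of each other, so their values are uncertain where reads were shared. H2BC21 lost its call without DMSO replicate 3 or any 1 YK-4-279 replicate (limma adjusted p = 0.0733 to 0.129), after quantile normalization (0.0682) and by eBayes without trend (0.11), and without YK-4-279 replicate 1 the list had 1 call, H2BC5.

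Of 4 tested among 7 markers known to fall, none was called by limma, edgeR or DESeq2, where limma called 3.41% of all genes. An unadjusted p under 0.05 was reached by 1 of them, FOSL1, whose value was higher with YK-4-279, and by 18.7% of all genes. MYC, the oncogene most often used as a readout of BET inhibition, was at 1073 ± 79.8 and 1112 ± 36.3 normalized counts (log2 difference 0.05, limma adjusted p = 0.742), and at -0.010 without DMSO replicate 1. FOSL1, a subunit of AP-1, was at 53.7 ± 7.28 and 74.6 ± 19.4 (log2 difference 0.45, adjusted p = 0.266), and its log2 difference was 0.25 without YK-4-279 replicate 3. BCL2, which blocks apoptosis, and CDK6, a kinase of the G1 phase, had log2 differences of -0.00039 and -0.0087 (adjusted p = 0.999 and 0.959). CCR1 and CD180 were listed at 0 in all libraries, and IL7R had at most 3 reads.

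**Figure D5:**
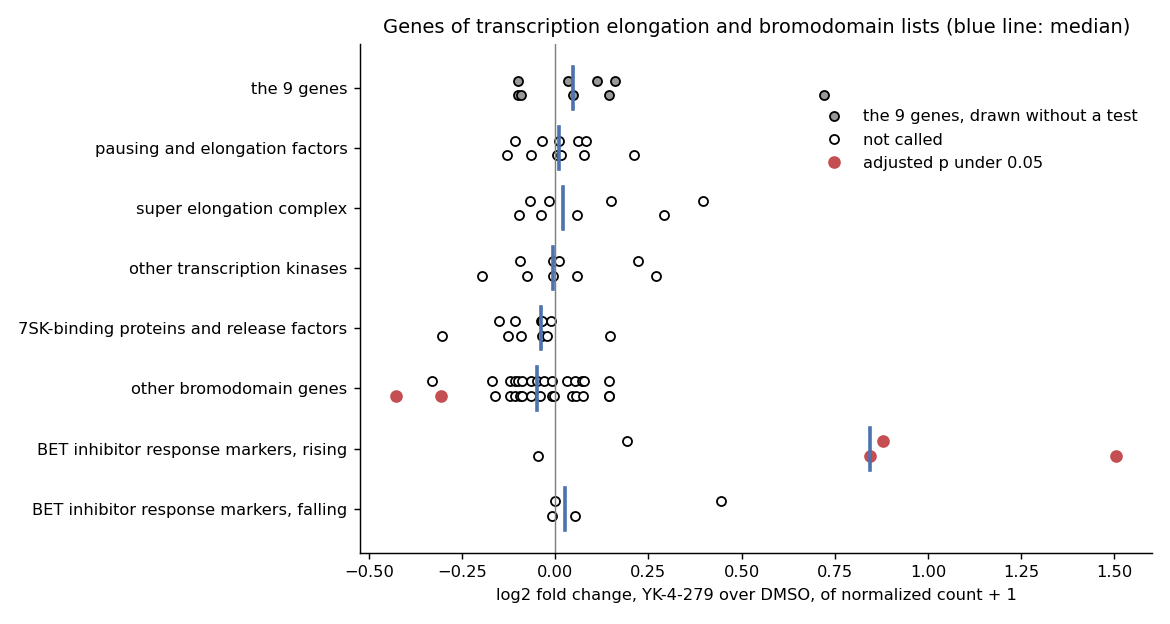
Log2 fold change of YK-4-279 over DMSO (x axis, on normalized count + 1) of the 9 genes (grey) and of the tested genes of 7 lists, filled red where the limma adjusted p is under 0.05, with a blue line at each median. Red points are ATAD2 and TRIM24 on the low side and 3 histone H2B genes on the high side, at 0.85 to 1.51.

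The genes whose log2 values over the 6 libraries were most like those of HEXIM1 were TMEM38A, an intracellular cation channel, MUL1, a ubiquitin ligase of mitochondria, PPP1R15A, which directs a phosphatase to the translation factor eIF2, GAB2, a signalling adaptor, and GDF15, a secreted stress cytokine. Their Pearson correlations with HEXIM1 were 0.997, 0.996, 0.996, 0.995 and 0.993, the highest among 10698 genes averaging at least 100 normalized counts. The 6 points of each fall into the 2 groups and share the libraries, so these are a description. PPP1R15A had 499, 613 and 608 normalized counts under DMSO and 804, 899 and 842 under YK-4-279, with the lowest value in DMSO replicate 1 as for HEXIM1. GDF15 had 382, 452 and 458 under DMSO and 606, 674 and 622 under YK-4-279, and its highest library was also that of HEXIM1, YK-4-279 replicate 2. TMEM38A and MUL1 were highest in YK-4-279 replicate 3, and GAB2 in YK-4-279 replicate 1. The mean folds of PPP1R15A and GDF15 were 1.48 and 1.47, and those of TMEM38A, GAB2 and MUL1 were 1.45, 1.34 and 1.18, all smaller than the 1.64 of HEXIM1.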

How the data were processed

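mRNA of 3 DMSO and 3 YK-4-279 samples of Rh30 cells was sequenced by the authors as paired reads from a directional library. Per the paper's methods, reads were trimmed with BBDuk, aligned to hg38 and counted per gene with STAR 2.7.9a, and DESeq2 was used. What the authors deposited is a normalized signal, the reads of each gene scaled by a library factor. Undoing the scaling returned whole reads in 100% of cases (tolerance 0.001). The table held 35269 rows, and 1 unnamed row with at most 6 reads per library was left out. No sample column was unused.

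Differences were tested in R 4.3.3 with limma 3.58.1 (trend, two-sided, Benjamini-Hochberg) on log2(normalized count + 1), over genes with a mean of at least 10, which understates changes of low genes. Interval and standard error come from that fit. Depth was 16724650 to 24677433 reads. Alternatives were pseudocounts of 0.5 and 10, no filter, a minimum mean of 100, TMM, quantile normalization, eBayes without trend, a replicate block, edgeR 4.0.16 and DESeq2 1.42.0 on recovered reads, leaving out each library, and, added after the data were seen, correction of each library for trends on GC content and length. Code was tested on simulated data. Positions, lengths and GC content came from GENCODE (98.4% of tested genes matched) and promoters from RefSeq.

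The members and lists were chosen with earlier results of these data known. Named were the 9 genes, in each list the gene with the highest mean and up to 2 with the largest change called, all tested BET markers, and the 5 genes (mean at least 100) most correlated with HEXIM1.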

Additional observations from a re-analysis of the deposited data

How the results depend on the processing

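The log2 fold change of HEXIM1 was 0.72 and kept its direction in all 17 alternatives, from 0.61 to 0.79. eBayes without trend was the one that ended its call. All 17 reuse libraries in which HEXIM1 had been seen to rise, so its direction and call there are a description and no support. The count among the 9 genes was 0 by eBayes without trend, 2 after GC and length correction (HEXIM1 and BRD3) and 1 to 3 when 1 library was left out. Over all genes 475 of 13930 were called, against 417 with TMM, 465 by edgeR and 277 with quantile normalization. DESeq2 called 623 of 12849, eBayes without trend 33 of 13930, and the fit after GC and length correction 1967 of 13705. The count was 19 to 1823 of 13930 when 1 library was left out. The low counts came without YK-4-279 replicates 1, 2 and 3 (19, 23 and 46), the count without DMSO replicate 3 was 242, and the highest came without DMSO replicate 1. The share of calls that were higher was 37.1%, against 47.6% with quantile normalization, 25.3% after GC and length correction and 90.9% by eBayes without trend. Without YK-4-279 replicate 1, 2 or 3 there were 15, 16 and 28 higher and 4, 7 and 18 lower calls, so that higher calls made up 78.9%, 69.6% and 60.9%. The cause was not tested.

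Replicate numbers were shared between the groups, but same-numbered libraries did not deviate together (correlations of -0.0985, -0.0269 and -0.0267). With a replicate block 180 genes were called, HEXIM1 among them, and 1 bromodomain gene in place of 2.

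Over all genes DESeq2 called 4.85% of 12849, and GC and length correction gave 1967 calls of 13705. Fits without 1 library called 19 to 1823 of 13930. Calls among the 11 pausing and elongation factors tested were 1 by DESeq2, 2 after GC and length correction and 0 to 2 when 1 library was left out. For the 8 genes tested of the super elongation complex they were 3 after that correction and 0 to 2 without 1 library, and for the 9 kinases and cyclins 1 and 0 to 1. For the 11 7SK-binding proteins tested they were 1 by DESeq2, 4 after that correction and 0 to 4 without 1 library. For the bromodomain genes they were 1 with TMM, quantile normalization and edgeR, 0 by eBayes without trend, 4 after that correction and 0 to 6 without 1 library. The rising BET markers had 1 to 3 calls without 1 library and 2 with quantile normalization and by eBayes without trend.

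Log2 fold changes near 0 turned sign. HEXIM2 was -0.126 with quantile normalization and -0.0747 after GC and length correction, and -0.134 to 0.199 without 1 library. CCNT1 ran from -0.011 to 0.12, MEPCE from -0.043 to 0.20 and CCNT2 from -0.15 to 0.0016 without 1 library. BCL2 was 0.018 with TMM, 0.020 by edgeR, 0.015 by DESeq2 and 0.013 after GC and length correction, and -0.042 to 0.054 without 1 library. CDK12 was 0.011 with TMM, 0.056 with quantile normalization, 0.012 by edgeR and 0.0075 by DESeq2, and -0.026 to 0.024 without 1 library. CDK6 was 0.0096 with TMM, 0.040 with quantile normalization, 0.0088 by edgeR, 0.0045 by DESeq2 and 0.016 after that correction, and -0.043 to 0.042 without 1 library. ZCCHC24 was 0.026 with quantile normalization. Without 1 library H2BC4 ran from -0.033 to 0.37 and MYC from -0.010 to 0.086. HEXIM2, FOSL1, H2BC4 and H2BC21 gave no value at a minimum mean of 100. Of the 9 genes HEXIM2 had the fewest reads, 27 to 43 per library.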
